A study of Mus musculus with 6 samples.

Results

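The genes described here are 10 markers of blood-borne neutrophils and monocytes, measured in RNA-seq libraries of microglia from WT mice. They were chosen by symbol: the neutrophil markers S100a8, S100a9, Ly6g, Mmp8, Camp and Ngp, and the monocyte markers Ly6c2, Ccr2, Plac8 and Chil3. All 10 were found among the 38924 Ensembl genes of the count tables. Female WT mice of the C57BL/6 strain were used, 3 aged 24 weeks and 3 aged 5 weeks, and each gave 1 library. Het mice of the study were not analysed here. Cells were taken from whole brains, after the meninges had been peeled off and myelin removed, with beads that bind CD11b, and perfusion of the animals is not mentioned in the methods used here.

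CD11b is the alpha chain of an integrin that microglia carry on their surface and that neutrophils and monocytes carry as well, so the beads can hold all of these cells. Neutrophils are short-lived granulocytes made in the bone marrow. They fill their granules in a fixed order as they mature, first with enzymes such as myeloperoxidase, then with antimicrobial proteins such as lactoferrin and cathelicidin, and late with gelatinases. Classical monocytes of the mouse carry Ly6C and the chemokine receptor CCR2, and they enter tissues along CCL2 gradients. In the healthy brain both cell types are found mainly within vessels, in the meninges and in the choroid plexus.

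The promoters of 4 of the 5 neutrophil markers whose counts moved together between libraries are shown first, so that the genes can be compared as sequences. Each holds 300 bases around the start of the gene, most of them upstream, 5′ to 3′, as given by RefSeq on GRCm38.p6. Capitals mark matches to TTNNGCAA, letters bound by C/EBP factors of the granulocyte lineage, and to GAGGAA, the core bound by PU.1, on either strand. The windows are chr3:90668821-90669120 on the plus strand for S100a8, chr3:90695672-90695971 on the minus strand for S100a9, chr9:7558179-7558478 on the plus strand for Mmp8, and chr9:110419558-110419857 on the plus strand for Ngp.
S100a8: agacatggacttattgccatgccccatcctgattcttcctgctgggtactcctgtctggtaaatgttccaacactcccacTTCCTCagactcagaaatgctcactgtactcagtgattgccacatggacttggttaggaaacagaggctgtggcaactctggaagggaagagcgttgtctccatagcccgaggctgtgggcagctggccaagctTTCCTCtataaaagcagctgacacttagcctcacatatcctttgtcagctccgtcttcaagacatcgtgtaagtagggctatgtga
S100a9: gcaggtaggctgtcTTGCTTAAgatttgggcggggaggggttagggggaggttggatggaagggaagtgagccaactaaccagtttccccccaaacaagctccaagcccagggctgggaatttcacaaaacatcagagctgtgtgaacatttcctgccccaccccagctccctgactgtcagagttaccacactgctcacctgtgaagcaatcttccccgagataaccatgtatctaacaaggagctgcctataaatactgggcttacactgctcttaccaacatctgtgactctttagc
Mmp8: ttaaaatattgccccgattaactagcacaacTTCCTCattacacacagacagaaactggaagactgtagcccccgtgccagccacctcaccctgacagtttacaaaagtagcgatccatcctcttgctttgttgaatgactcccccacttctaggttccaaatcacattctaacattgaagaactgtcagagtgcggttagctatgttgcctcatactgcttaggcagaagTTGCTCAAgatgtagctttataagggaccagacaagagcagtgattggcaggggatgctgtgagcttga
Ngp: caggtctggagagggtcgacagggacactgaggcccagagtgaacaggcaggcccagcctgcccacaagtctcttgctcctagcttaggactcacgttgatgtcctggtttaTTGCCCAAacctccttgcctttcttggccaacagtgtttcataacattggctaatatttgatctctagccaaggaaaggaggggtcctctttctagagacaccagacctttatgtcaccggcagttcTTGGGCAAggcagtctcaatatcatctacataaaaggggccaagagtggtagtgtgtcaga
The S100a8 window held 2 PU.1 cores and 0 C/EBP matches, that of S100a9 1 C/EBP match and 0 PU.1 cores, that of Mmp8 1 of each, and that of Ngp 2 C/EBP matches and 0 PU.1 cores. The 10 genes have 13 windows in RefSeq, of which 5 held a C/EBP match (in S100a9, Ly6g, Mmp8, Ngp and Plac8), against 10.8% of all 32851 promoter windows. A PU.1 core was found in 7 of the 13 (in S100a8, Ly6g, Mmp8, Ly6c2 and Plac8), against 28.3% of all windows. The letters TGTGGT of RUNX factors were found in 4 of the 13 (16.8% of all windows) and the TATA box TATAAA in 6 (13.6%), both strands included, and no match of one motif overlapped that of another in these windows. Camp, Ccr2 and Chil3 had neither a C/EBP match nor a PU.1 core. The counts of Camp moved with those of the 4 genes shown, but its sequence was left out above. A match is a description of the letters only.

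Read pairs on genes numbered 10410625 to 13554336 per library at 24 weeks and 23198065 to 46434788 at 5 weeks. Pairs on no exon made up 48.7 to 54.9% of uniquely placed pairs at 24 weeks and 40.0 to 41.8% at 5 weeks. The part of this in the differences between the ages was not tested. All values below are normalized CPM, that is, counts per 1000000 gene counts of a library after scaling by TMM factors, unless raw counts are named. Each age was sequenced in its own lane, so for every difference given here the effect of the lane and that of age cannot be told apart. The library of 24-week replicate 3 stood apart in Xist, the RNA of the inactive X chromosome, with 78 counts against 34439 and 36581 in the other 24-week libraries and 31677 to 59021 at 5 weeks. Ddx3y, Uty, Kdm5d and Eif2s3y, which lie on the Y chromosome, had 0 counts in every library. Markers of the labelled cell type were high, since the 12 homeostatic microglia genes summed to 26578 to 29610 normalized CPM at 24 weeks and 31787 to 36621 at 5 weeks. Among them is Itgam, the gene of CD11b, which the beads select for. It had 1325 to 1445 at 24 weeks and 1490 to 1736 at 5 weeks. The paper describes the cells its isolation typically gives as mostly, but not wholly, microglia.

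The neutrophil markers were present in every library at a small fraction of the microglial level. The 6 genes summed to 192, 55.4 and 152 normalized CPM in 24-week replicates 1, 2 and 3, against 246, 84.3 and 173 in 5-week replicates 1, 2 and 3. For every 1000 normalized CPM of the homeostatic microglia genes, this was 6.48, 2.09 and 5.23 at 24 weeks and 7.16, 2.65 and 4.72 at 5 weeks. Replicate 2 was the lowest library at both ages, and the ages overlapped. Within an age the highest library was 3.46 times the lowest at 24 weeks and 2.92 times at 5 weeks, while the age means were 133 ± 70.0 and 168 ± 80.97 (SD, n = 3 each). In bulk RNA, fewer cells of a type and less RNA per cell cannot be told apart.

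The 4 monocyte markers summed to 38.8, 38.7 and 43.4 normalized CPM at 24 weeks, against 63.0, 54.3 and 45.03 at 5 weeks. The means were 40.3 ± 2.67 at 24 weeks and 54.1 ± 9.01 at 5 weeks (SD, n = 3 each), with no overlap between the ages, although 24-week replicate 3 and 5-week replicate 3 lay close together. Per 1000 normalized CPM of the homeostatic microglia genes the sums were 1.31, 1.45 and 1.496 at 24 weeks and 1.84, 1.71 and 1.23 at 5 weeks, where the ages did overlap. The sum is mostly Ccr2, but each of the 4 genes taken alone overlapped between the ages. The sum also adds genes that moved in opposite ways. From 24-week replicate 1 to replicate 2, Ccr2 went from 21.2 to 28.5 and Plac8 from 4.01 to 6.21. Chil3 and Ly6c2 instead went from 10.6 to 2.59 and from 2.99 to 1.40.

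**Figure D1:**
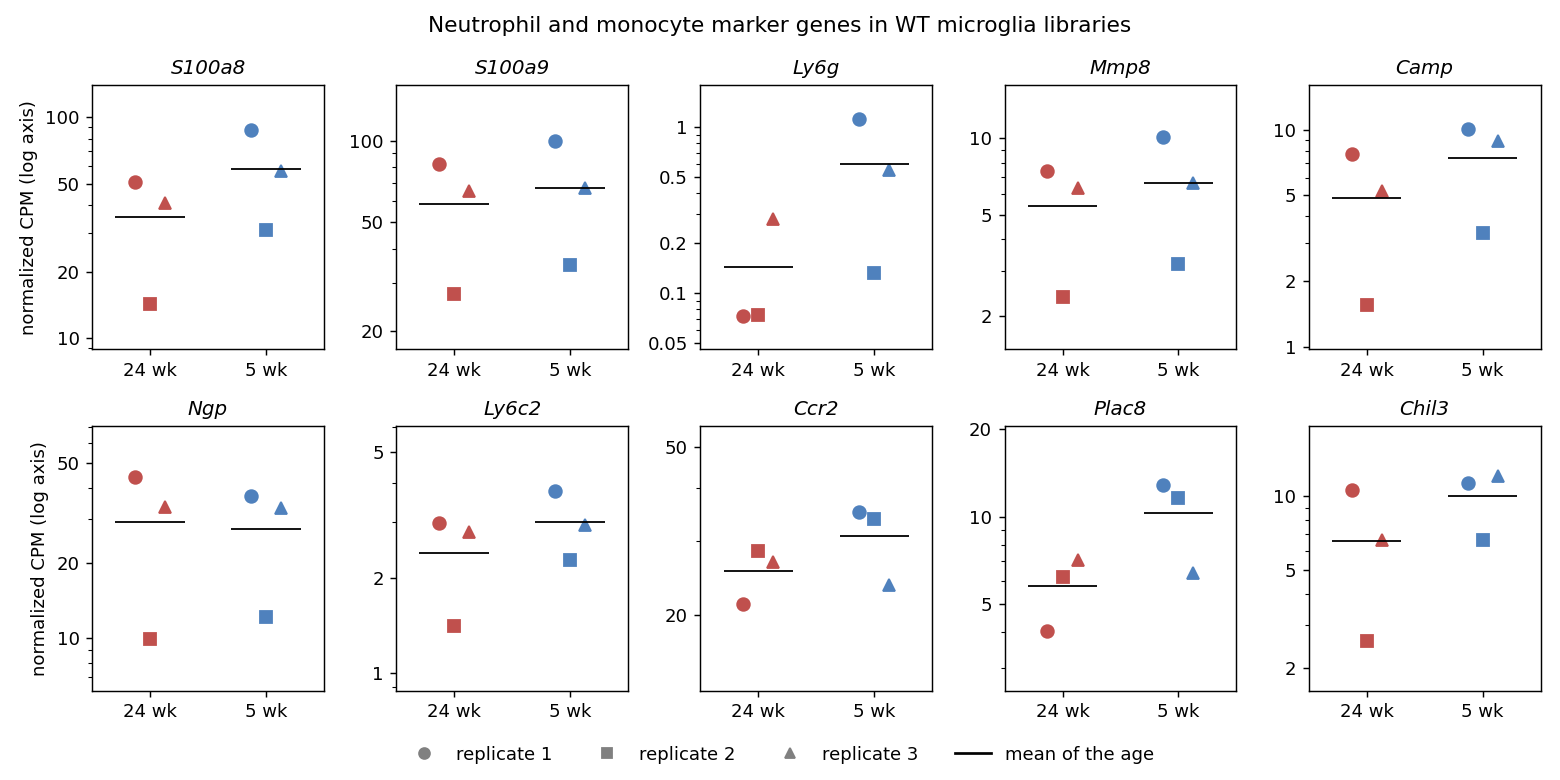
Normalized CPM (log axis, own scale in each panel) of the 10 marker genes in the 3 libraries at 24 weeks (red, left) and the 3 at 5 weeks (blue, right), with marker shapes for the replicates and lines for the means. Replicate 2 (squares) was the lowest library at both ages in 7 of the 10 genes, whereas Ccr2, Plac8 and, at 24 weeks, Ly6g did not follow that order.

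S100a8 and S100a9 encode the subunits of calprotectin, a calcium- and zinc-binding protein that makes up much of the neutrophil cytosol and is also made by monocytes. The genes lie near each other on chromosome 3 of GRCm38, S100a8 from 90668978 to 90670035 and S100a9 from 90692632 to 90695721. S100a8 had 50.7, 14.2 and 40.9 normalized CPM in the 24-week libraries, against 87.6, 30.7 and 57.0 in the 5-week libraries. Its ages overlapped, since 24-week replicates 1 and 3 exceeded 5-week replicate 2, and it did not pass the test (log2 fold change -0.74, SE 0.41, adjusted p = 0.208, edgeR's quasi-likelihood test with Benjamini-Hochberg adjustment, 24 weeks minus 5 weeks, as throughout). S100a9 had 81.9, 27.4 and 65.4 at 24 weeks, against 99.98, 34.8 and 66.8 at 5 weeks, and its log2 fold change was -0.21 (SE 0.39, adjusted p = 0.715). Here too 24-week replicates 1 and 3 exceeded 5-week replicate 2. Without the filter on low counts, S100a8 passed as lower at 24 weeks (-0.78, adjusted p = 0.0152).

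The balance between the calprotectin subunits differed by age. S100a9 made up 61.8% (exact 95% binomial interval 59.5 to 64.0), 65.8% (61.8 to 69.8) and 61.6% (58.7 to 64.4) of the counts on the pair in 24-week replicates 1, 2 and 3. At 5 weeks the shares were 53.3% (52.0 to 54.6), 53.1% (50.6 to 55.7) and 53.9% (52.6 to 55.3). The intervals cover counting error only. None of the 24-week intervals met any of the 5-week ones, although within an age the level of either gene differed by 2.85 to 3.57 times between libraries. The log2 fold change of S100a9 exceeded that of S100a8 by 0.52, and by 0.50 after trends on transcript length and GC content had been removed. Their longest transcripts are of like length, 498 bases for S100a8 and 519 for S100a9. This comparison was chosen after the values were seen. Such a difference was not particular to this pair. Of the 10 pairs among the 5 neutrophil markers tested, 5 had ratios that did not overlap between the ages. These included 3 of the 4 pairs with S100a8. Of single genes tested, 45.1% did not overlap. Counts on Ngp per count on S100a8 averaged 0.795 at 24 weeks and 0.467 at 5 weeks, without overlap. For Camp per count on S100a8 the means were 0.130 and 0.126, and the ages overlapped.

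**Figure D2:**
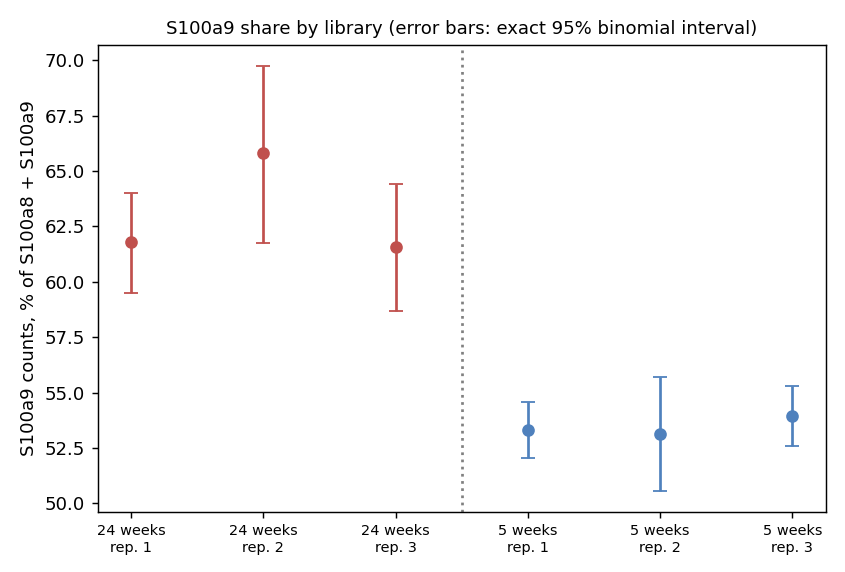
Share of S100a9 in the counts on S100a8 and S100a9 together (y axis, percent, from 50 upward) in each library, 24 weeks in red and 5 weeks in blue, with exact 95% binomial intervals. The 24-week libraries lie between 61.6% and 65.8% and the 5-week libraries between 53.1% and 53.9%.

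Ngp and Camp encode granule proteins of the cathelicidin family, neutrophilic granule protein and the precursor of the antimicrobial peptide CRAMP, and both lie on chromosome 9 (Ngp from 110419747 to 110423012, Camp from 109847379 to 109849617). Ngp had 43.9, 9.91 and 33.5 normalized CPM in the 24-week libraries, against 37.2, 12.2 and 33.0 in the 5-week libraries. Its means were nearly level, 29.1 ± 17.4 and 27.5 ± 13.4 (SD, n = 3 each; log2 fold change 0.07, SE 0.46, adjusted p = 0.921, edgeR). Camp had 7.74, 1.55 and 5.24 at 24 weeks, against 10.1, 3.33 and 8.89 at 5 weeks, and its log2 fold change was -0.63 (SE 0.48, adjusted p = 0.351). Replicate 2 was the lowest library at both ages for each gene, and the highest library of an age was 3.02 to 4.98 times the lowest.

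Although the levels of Camp and Ngp differed that much within an age, their ratio hardly did. There were 0.176, 0.157 and 0.156 counts on Camp for each count on Ngp at 24 weeks, and 0.271, 0.273 and 0.269 at 5 weeks. Camp took 14.97% (exact 95% binomial interval 12.4 to 17.8), 13.5% (8.59 to 20.0) and 13.5% (10.4 to 17.2) of the counts on both genes at 24 weeks, and 21.3% (19.3 to 23.5), 21.5% (17.3 to 26.1) and 21.2% (19.3 to 23.2) at 5 weeks. The ages did not overlap in this share, but the interval of 24-week replicate 2 met all those of 5 weeks, and that of 5-week replicate 2 met that of 24-week replicate 1. All ratios given here were likewise chosen after the values were seen. With length and GC trends removed, the log2 fold change of Ngp still exceeded that of Camp by 0.64, against 0.71 without.

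Mmp8 encodes neutrophil collagenase, a protease stored in granules (chromosome 9 from 7558456 to 7568485). It had 7.44, 2.37 and 6.36 normalized CPM at 24 weeks, against 10.1, 3.20 and 6.63 at 5 weeks, and did not pass (log2 fold change -0.32, SE 0.43, adjusted p = 0.609, edgeR). Its ratio to S100a9 was steady over all libraries, with 0.0909, 0.0865 and 0.0971 counts on Mmp8 per count on S100a9 at 24 weeks and 0.101, 0.0918 and 0.0992 at 5 weeks. Against S100a8 the ratio was higher at 24 weeks, 0.156 ± 0.00987 against 0.112 ± 0.00671 at 5 weeks (SD, n = 3 each), and the log2 fold change of Mmp8 exceeded that of S100a8 by 0.42, or by 0.13 with length and GC trends removed.

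Ly6g, the surface protein of the Gr-1 and 1A8 antibodies that marks mouse neutrophils in flow cytometry, was barely detected (chromosome 15 from 75155240 to 75159126). It had 1, 1 and 3 counts in the 24-week libraries, against 36, 3 and 24 counts in the 5-week libraries, and was left out of the test by the filter on low counts. Exact Poisson intervals were 0.0253 to 5.57 counts for 1 count and 0.619 to 8.77 counts for 3, and these cover counting error only. In normalized CPM the values were 0.0730, 0.0739 and 0.280 at 24 weeks and 1.13, 0.131 and 0.554 at 5 weeks, so 24-week replicate 3 lay above 5-week replicate 2. Without a filter, Ly6g passed with a fold change of -2.21 on the log2 scale (SE 0.76, adjusted p = 0.0302, edgeR), a value that rests on 5 counts in all at 24 weeks. It also entered the test when a 24-week library was left out, and did not pass without replicate 1 (adjusted p = 0.239), replicate 2 (0.231) or replicate 3 (0.0811). Of the counts on Ly6g and S100a8, Ly6g took 0.144%, 0.518% and 0.682% at 24 weeks and 1.27%, 0.426% and 0.962% at 5 weeks.

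Ccr2, the receptor that draws classical monocytes out of the marrow and into tissue (chromosome 9 from 124101950 to 124113557), gave most of the monocyte marker counts. It had 21.2, 28.5 and 26.8 normalized CPM at 24 weeks, against 35.1, 33.8 and 23.7 at 5 weeks. Only 5-week replicate 3 lay within the range of the 24-week libraries. Ccr2 did not pass (log2 fold change -0.27, SE 0.17, adjusted p = 0.252, edgeR), but it did without 5-week replicate 3 (-0.43, adjusted p = 0.0277) and with length and GC trends removed (-0.46, adjusted p = 0.0105).

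Plac8, a small cysteine-rich protein made by monocytes, lymphocytes and other white cells (chromosome 5 from 100553725 to 100572245), was the gene that passed. It fell to 4.01, 6.21 and 7.10 normalized CPM at 24 weeks, against 12.8, 11.6 and 6.37 at 5 weeks, and its log2 fold change was -0.83 (SE 0.28, adjusted p = 0.0489, edgeR). The ages overlapped all the same, because 5-week replicate 3 lay below 24-week replicate 3. The call was lost when 24-week replicate 1 (adjusted p = 0.183), 24-week replicate 2 (0.0971), 5-week replicate 1 (0.167) or 5-week replicate 2 (0.105) was left out, and it held without 24-week replicate 3 (0.049) or 5-week replicate 3 (0.0043). It was also lost with total counts only (0.0932) and with length and GC trends removed (0.0812). Markers of border-associated macrophages, perivascular and meningeal cells, were lower at 24 weeks too. Of 10, 7 fell and 0 rose, where 13.3% of all genes tested fell and 15.5% rose. These markers summed to 1767 to 1829 normalized CPM at 24 weeks and 2591 to 2960 at 5 weeks. A large part of this sum was Stab1, with 1177 to 1256 at 24 weeks and 1303 to 1933 at 5 weeks. Stab1 did not pass (adjusted p = 0.152, edgeR). The part of border-associated macrophages in the fall of Plac8 was not tested.

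Chil3, a secreted chitinase-like protein (also called Ym1) of neutrophils, monocytes and activated macrophages, lies on chromosome 3 from 106147554 to 106167564. It had 10.6, 2.59 and 6.64 normalized CPM at 24 weeks, against 11.4, 6.65 and 12.1 at 5 weeks, and its log2 fold change was -0.61 (SE 0.38, adjusted p = 0.258, edgeR). Replicate 2 was again the lowest at both ages. Ly6c2, which encodes the Ly6C antigen of classical monocytes (chromosome 15 from 75108158 to 75111970), had 2.99, 1.40 and 2.80 at 24 weeks, against 3.78, 2.28 and 2.93 at 5 weeks, and its log2 fold change was -0.33 (SE 0.32, adjusted p = 0.457). Its near copy Ly6c1 is expressed by brain endothelium and rose to 27.3 ± 2.29 at 24 weeks, against 15.5 ± 1.64 at 5 weeks (SD, n = 3 each; log2 fold change 0.81, SE 0.13, adjusted p = 0.00116). Of all stretches of the read length in the longest Ly6c2 transcript, 3.45% were also found in Ly6c1 transcripts, so a small part of either gene's counts is uncertain. The like share was 5.21% for Chil3 (shared with Chil4 and the gene Gm6522) and 0 for the neutrophil markers and Plac8.

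Of the 9 genes tested between the ages, 0 rose, 1 fell and 8 did not pass, where 28.8% of all 16157 genes tested passed, 15.5% as higher and 13.3% as lower at 24 weeks. Ages were fully separate in 0 of the 9, against 45.1% of all genes tested. The median log2 fold change of the 9 was -0.33, with 8 of 9 below 0, and that of all genes 0.00. For the neutrophil markers alone, 0 of 5 passed edgeR's test, 0 had an unadjusted p under 0.05 (40.9% of all genes tested did), and 0 passed with DESeq2. Without the filter on low counts, S100a8 and Ly6g passed as lower at 24 weeks. The SE of a neutrophil marker ran from 0.39 to 0.48 on the log2 scale, and their log2 fold changes from -0.74 to 0.07.

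**Figure D3:**
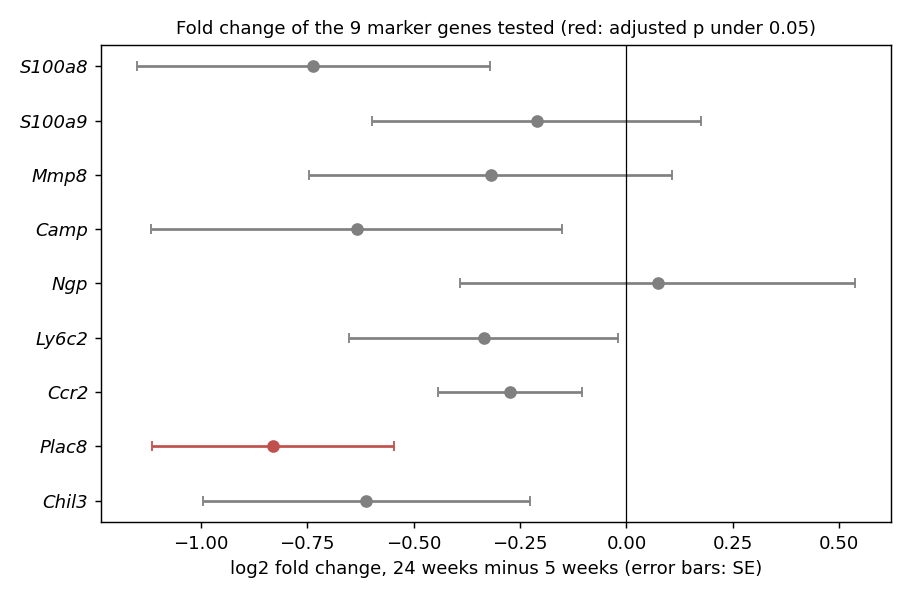
Log2 fold change (24 weeks minus 5 weeks) with SE from edgeR's fit for the 9 marker genes tested (3 libraries per age). Plac8 (red) passed at -0.83, the others (grey) lie between -0.74 (S100a8) and 0.07 (Ngp), and Ly6g is not shown because it was not tested.

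The neutrophil markers varied widely between mice of one age. The SD of log2 normalized CPM within an age was 0.88 for S100a8, 0.80 for S100a9, 0.86 for Mmp8, 1.05 for Camp and 1.02 for Ngp, against a median of 0.20 over all genes tested. These values lay at percentiles 97.9 to 99.2 of all genes tested. Chil3 was alike (0.80, percentile 97.8), Ly6c2 (0.49) and Plac8 (0.49) were at percentile 89, and Ccr2 (0.27) was at percentile 66.5. The homeostatic microglia genes had a median SD of 0.14. The highest library of an age was 2.85 to 4.98 times the lowest for the 5 neutrophil markers tested, where the median gene gave 1.22 times at 24 weeks and 1.31 times at 5 weeks.

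The markers also varied together. In 7 of the 10 genes (S100a8, S100a9, Mmp8, Camp, Ngp, Ly6c2 and Chil3) replicate 2 was the lowest library at both ages, as it was in 12.6% of all genes tested. Replicate 1 was the highest library at both ages in all of these except Chil3, whose highest 5-week library was replicate 3. The replicate numbers are labels of separate mice and carry no pairing between ages. Because these 7 genes varied together, they are not 7 separate cases of the same order. Ccr2 and Plac8 had other orders: replicate 1 was their lowest library at 24 weeks and replicate 3 at 5 weeks. The neutrophil marker Ly6g departed as well, with replicate 3 as its highest library at 24 weeks, on 1, 1 and 3 counts. Relative to the mean of its age, 24-week replicate 1 was at 0.62 to 0.95 on the log2 scale for the 5 neutrophil markers, but at -0.25 for Ccr2 and -0.48 for Plac8.

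**Figure D4:**
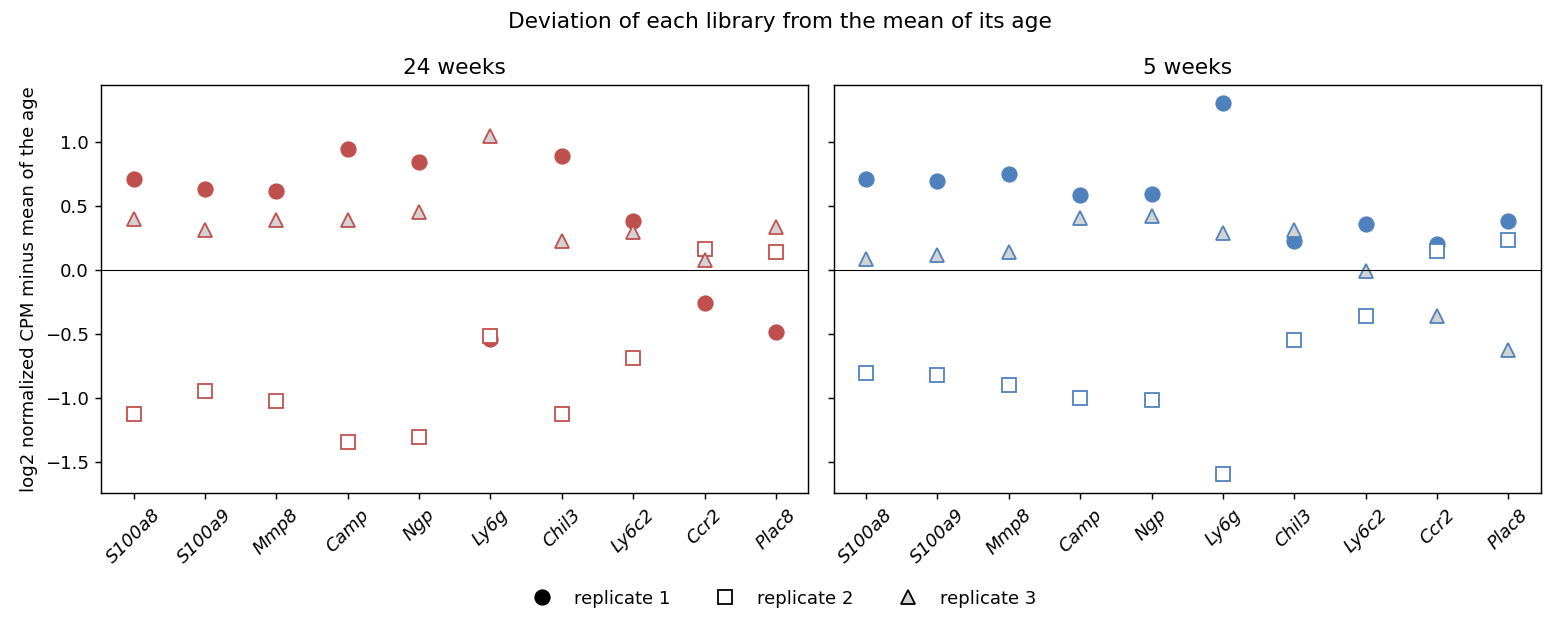
Log2 normalized CPM minus the mean of its age for each marker gene (x axis) in the 24-week (left) and 5-week (right) libraries, with a symbol for each replicate. For S100a8, S100a9, Mmp8, Camp and Ngp replicate 2 lies at -1.34 to -0.80 and replicates 1 and 3 above 0. Ccr2, Plac8 and, at 24 weeks, Ly6g follow other orders.

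Of a further 21 neutrophil genes, 15 were tested, and 1 rose, 0 fell and 14 did not pass. Among all genes tested 15.5% rose and 13.3% fell. The median log2 fold change of the 15 was 0.01. In 10 of the 15 replicate 2 was again the lowest library at both ages. Ltf, which encodes lactoferrin, had 36.3, 5.40 and 21.6 normalized CPM at 24 weeks, against 44.2, 15.4 and 37.5 at 5 weeks, and its log2 fold change was -0.62 (SE 0.51, adjusted p = 0.388, edgeR). Retnlg, a resistin-like protein of neutrophils, had 7.74, 2.81 and 6.08 at 24 weeks, against 15.3, 5.47 and 7.90 at 5 weeks (-0.79, SE 0.40, adjusted p = 0.157). Pglyrp1, a peptidoglycan-binding granule protein, was the gene that rose, to 5.39 ± 0.704 at 24 weeks, against 3.15 ± 0.553 at 5 weeks (SD, n = 3 each; 0.77, SE 0.22, adjusted p = 0.0221). Csf3r, the receptor for G-CSF, had 621 to 643 normalized CPM at 24 weeks and 438 to 658 at 5 weeks, and microglia express it too. Genes of the first granules, which belong to precursors in the marrow, were low. Mpo, myeloperoxidase, had 63, 3 and 6 counts at 24 weeks and 71, 10 and 92 at 5 weeks, and Elane, neutrophil elastase, 17, 3 and 1 at 24 weeks and 18, 9 and 24 at 5 weeks. The highest 24-week library for both was replicate 1.

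A further 16 monocyte genes did not share this order, since replicate 2 was the lowest at both ages in 1 (S100a4) of the 15 tested. Of the 15, 4 rose, 1 fell and 10 did not pass, where 15.5% of all genes tested rose and 13.3% fell. The median log2 fold change of the 15 was 0.24. Those that rose were Fn1, fibronectin (log2 fold change 1.91, adjusted p = 8.59e-06, edgeR), Itgal, an integrin of white cells (1.05, adjusted p = 0.00293), Ace, the angiotensin-converting enzyme (1.02, adjusted p = 0.000197), and Vcan, the proteoglycan versican (0.66, adjusted p = 0.0399). The one that fell was S100a4 (-0.71, adjusted p = 0.0289). Fn1 and Ace are also made by vascular cells, whose part was not tested. Of 10 endothelial markers 9 rose, against 15.5% of all genes tested. The 10 summed to 569 to 599 normalized CPM at 24 weeks and 258 to 304 at 5 weeks.

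Markers of other blood cells had their own orders of libraries. Erythroid genes, mostly globins, summed to 339, 116 and 67.8 normalized CPM at 24 weeks, against 213, 308 and 69.0 at 5 weeks, so that 5-week replicate 2 was the highest of its age for red cells and the lowest for neutrophil markers. None of the 5 erythroid genes tested passed edgeR's test or had an unadjusted p under 0.05, and 0 had replicate 2 as the lowest at both ages. Genes of T and NK cells summed to 11.8, 10.1 and 15.2 at 24 weeks and 22.3, 16.8 and 9.77 at 5 weeks. Of 6 tested, 0 passed edgeR's test and 2 (Gzma and Klrb1c) had an unadjusted p under 0.05, against 40.9% of all genes tested. Of the 2 genes tested each, 1 B cell gene (Cd79b) and 1 platelet gene (Gp9) fell, where 13.3% of all genes tested fell. The T cell receptor gene Cd3e had at most 0.0935 normalized CPM in any library.

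**Figure D5:**
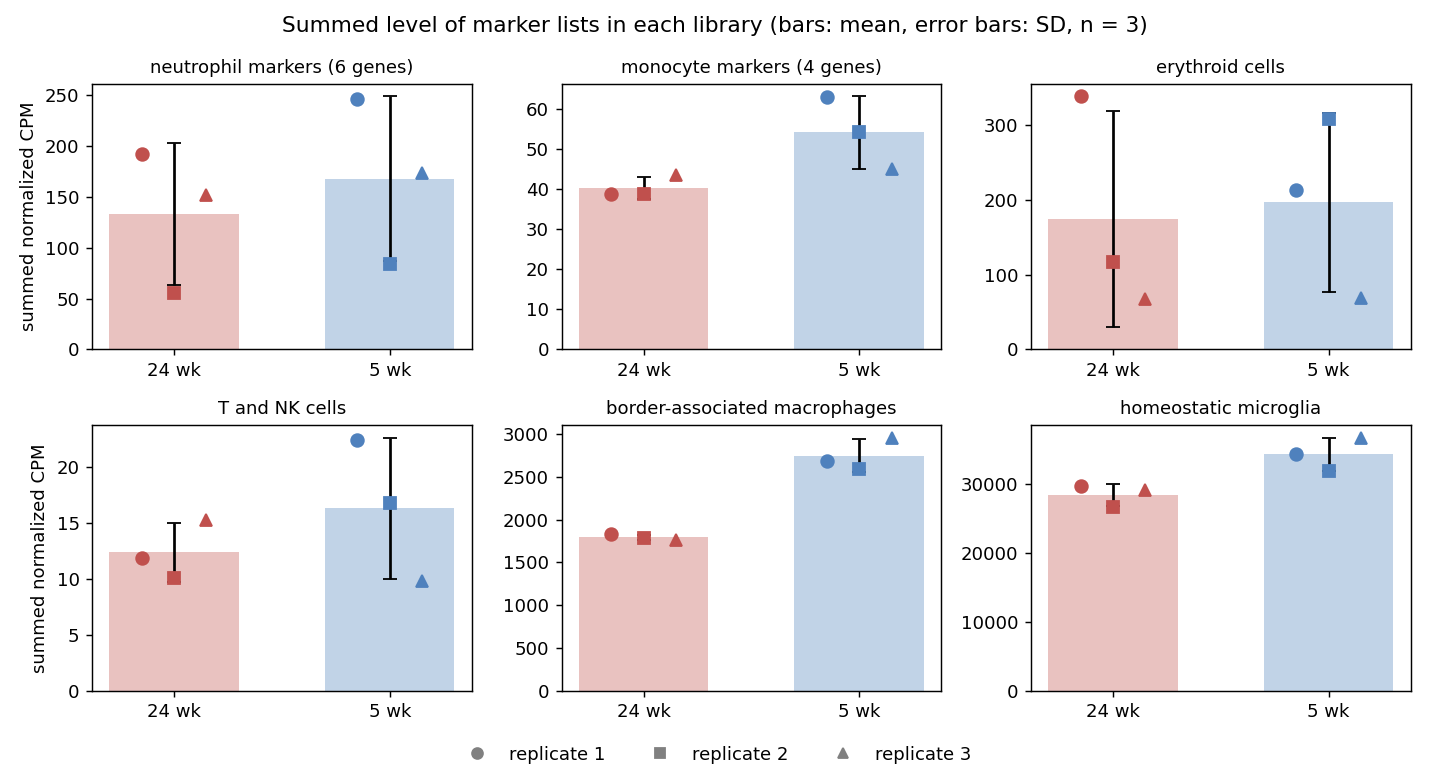
Summed normalized CPM of 6 gene lists in each library (points, shapes for replicates), with bars for the mean and error bars for the SD (n = 3), 24 weeks in red on the left and 5 weeks in blue on the right of each panel. Neutrophil markers range from 55.4 to 246 and are lowest in replicate 2 of each age, erythroid genes follow another order, and homeostatic microglia genes range from 26578 to 36621.

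Per length, the genes differed widely in level. Length here is that of all exons of a gene joined, 694 bases for S100a8 and 522 for S100a9. Their longest transcripts have 498 and 519 bases, so the gap between these genes depends on the length used. Mean normalized CPM per 1000 bases of exon was 112 at 24 weeks and 129 at 5 weeks for S100a9, 50.8 and 84.2 for S100a8, 23.8 and 22.5 for Ngp, and 6.39 and 9.80 for Camp, an order kept in all 6 libraries. Camp lay below Ccr2 and Plac8 in both replicate 2 libraries. Chil3 (4.05 and 6.14), Ccr2 (3.77 and 4.56), Plac8 (3.63 and 6.44) and Mmp8 (2.22 and 2.74) followed, and their order changed between libraries. Ly6c2 (0.876 and 1.09) and Ly6g (0.151 and 0.641) were the lowest in every library.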

How the data were processed

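RNA-seq counts of 6 WT microglia libraries were used, 3 at 24 weeks and 3 at 5 weeks. The authors used trim_galore for trimming, TopHat2 2.0.13 for alignment (GRCm38) and HTSeq 0.6.1, set to the reverse strand, for counting uniquely placed pairs over Ensembl genes. What they deposited are raw counts, not normalized. The 5 rows that name no gene were left out of library sizes and tests. Pairs on no exon were 48.7 to 54.9% of uniquely placed pairs at 24 weeks and 40.0 to 41.8% at 5 weeks. Pairs on more than 1 gene were 0.996 to 1.13% at 24 weeks and 1.37 to 1.54% at 5 weeks. Alignments at several positions were 22.5 to 23.5% of all rows at 24 weeks and 32.7 to 35.5% at 5 weeks. None of these ranges overlapped between the ages. Symbols, positions and lengths came from GENCODE M21 on GRCm38, which matched 37607 of 38924 identifiers and 110 of 112 list symbols.

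The ages were compared with edgeR 4.0.16 (R 4.3.3), with TMM factors, the default filter on low counts (16157 genes kept), a quasi-likelihood test of age without further terms, and p-values adjusted by Benjamini-Hochberg across the genes kept. A gene passed at an adjusted p under 0.05. SE was taken as the size of the log2 fold change over the root of the F statistic. The fit was tested on simulated data. Alternatives were DESeq2 1.42.0, its size factors, total counts, no filter, a filter of at least 10 counts in every library, a replicate block, thinning of the 5-week libraries, removal of length and GC trends, and leaving out each library. SD within an age used log2 normalized CPM with a prior count of 0.5. Of the other lists, the genes named are the 3 highest per length, those a count of 5 or fewer refers to, and, chosen after their values were seen, Mpo, Elane and Cd3e. Of the first kind, only genes that a result rests on are given. The marker genes and lists were chosen with earlier results of these data known, as were the motifs. P-values set the difference between the ages, which the lanes share, against the spread between mice of an age.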

Additional observations from a re-analysis of the deposited data

How the results depend on the processing

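Of the 10 marker genes, 1 passed, and the same gene (Plac8) passed with DESeq2, with its size factors, with a stricter filter and with the 5-week libraries thinned. With length and GC trends removed 1 gene passed as well, but it was Ccr2. With total counts only 0 passed, and without a filter on low counts 3 did (S100a8, Ly6g and Plac8). Leaving out 1 library at a time, 0 to 2 passed, and among all genes 2836 to 6042, against 4646 with all libraries. Of all genes, 2505 were higher and 2141 lower at 24 weeks, 3229 and 1466 with total counts only, and 2373 and 3246 with trends removed. Of 126 fold changes over 9 genes and 14 alternatives, 105 kept their direction and side of the threshold, 7 lost the call, 6 gained it and 8 changed sign, none of the last past the threshold. S100a9 turned to 0.078 with trends removed and ran from -0.55 to 0.17 with a library left out, Mmp8 from -0.65 to 0.087 and Ngp from -0.37 to 0.48. The summed neutrophil markers had a log2 ratio of the age means of -0.34, with -0.70 to 0.047 when a library was left out, and the monocyte markers one of -0.43, with -0.54 to -0.30. Relative to the homeostatic microglia genes these ratios were -0.08 and -0.16. The cause of these shifts was not tested.

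The replicate numbers did not pair the libraries: deviations of same-numbered libraries correlated at 0.07, 0.09 and -0.05 across genes. With a replicate block 3 marker genes passed (S100a8, Camp and Chil3, not Plac8), and 4375 of all genes.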

Other observations

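The genes most like S100a9 were sought by Pearson's r of log2 normalized CPM, centred within each age, over the 6 libraries and 14848 genes with a mean of at least 1 normalized CPM. The first was Mmp8 (r = 0.999) and the fourth S100a8 (0.996), and 70 genes had an r over 0.95, among them Ngp, Camp, Ly6c2, Ltf, Retnlg and Cd177. The others in the first 5, 9930111J21Rik2, Asb10 and Gbp7, moved by at most 0.11 on the log2 scale, while S100a8 moved by up to 1.12. For Ccr2 the first 5 were Rrp15, Dnah12, Slc25a4, Apoo-ps and Fam208a (r from 0.996 to 0.999), and 122 genes had an r over 0.95, Plac8 (0.967), Itgal and Treml4 among them. Between Ccr2 and S100a9 r was -0.36. With 6 libraries and the age means removed, 4 degrees of freedom remain, so these values are descriptions only, and the libraries of an age share their lane.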
